A study of Homo sapiens with 6 samples.

Results

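The genes described here carry out mitosis and hold sister chromatids together. The 38 genes were chosen by name, out of 62700 listed in the gene table, and each was matched to its Ensembl identifier through its symbol. They are 9 mitotic kinases, cyclins and phosphatases, 2 genes of the chromosomal passenger complex, 6 genes of the spindle checkpoint, 6 genes of centromeres and spindle motors, 2 mitotic chromosome proteins, 5 genes of the cohesin ring, 6 cohesin regulators, and separase with its inhibitor securin. All 38 passed the filter on low values that left 14292 genes for testing, with normalised read counts (reads divided by one size factor per library) between 377 and 14249 in any library.

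The cells were TCam-2, an established cell line from a human seminoma, a germ cell cancer of the testis. Polyadenylated RNA was sequenced in 2 libraries of each of 3 groups: cells transduced with RBMXL3_FLAG, which overexpress a FLAG-tagged RBMXL3 (RBMXL3), cells transduced with GFP_FLAG, which overexpress a FLAG-tagged GFP (GFP), and non-transduced cells (WT). RBMXL3 belongs to the RBMX family of RNA-binding proteins, and the study asked which genes differ in expression or splicing when it is overexpressed. The labels name neither the promoter behind the transgenes nor whether clones or pools were used, and they do not say that the 2 libraries of a group came from separate cultures, so p-values measure only the spread between these samples.

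As background, cyclin B with its kinase CDK1 drives cells into mitosis, and the spindle checkpoint holds them there until every chromosome is attached to the spindle. Cohesin is a ring that keeps the sister chromatids together from replication onwards. At anaphase CDC20 activates the anaphase-promoting complex, which marks securin and cyclin B for destruction, and the freed separase cuts the RAD21 subunit of the ring. Many mitotic genes are transcribed late in the cell cycle through a pair of promoter elements, the CCAAT box bound by NF-Y and the cell cycle homology region bound by the DREAM and MuvB complexes.

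The RBMXL3 gene had 0 reads in all 4 control libraries and 84 and 68 reads in the RBMXL3 libraries. Depth was between 17685680 and 21023355 reads in RBMXL3, 23080795 and 26776703 in GFP, and 28604436 and 29318007 in WT. The defining seminoma markers POU5F1, NANOG, SOX17 and TFAP2C were present in all 6 libraries, and the leukocyte markers PTPRC and CD68 had at most 1 read in any library. KIT, another seminoma marker, was at 2.44 to 6.26 TPM (transcript abundance corrected for length and scaled to a fixed library total), with 1096 to 3045 reads. Some seminoma markers also moved with the groups in normalised read counts. Normalised read counts of KIT were 2578 and 2403 for WT, 1802 and 1926 for GFP, and 1411 and 1429 for RBMXL3. Of the 9 seminoma markers, both RBMXL3 libraries were below all controls in 5 (KIT, PRDM1, NANOG, PDPN and LIN28A) and above them in POU5F1 (41233 and 40115, against 27460 to 34996). Over all genes tested, 23.6% were below all controls in this way and 22.5% above. In TPM, PRDM1 was again below and POU5F1 above, but KIT, NANOG and LIN28A overlapped the controls. PDPN was above every control there (373 and 369, against 279 to 349). The part of these differences in the results was not tested. Of the fibroblast markers, DCN had at most 2 reads, and COL1A2 was high throughout, at normalised read counts of 8093 to 12709. The Sertoli cell marker SOX9 was at 67.1 to 78.4 in the controls and 118 and 115 in RBMXL3, and its part in the results was not tested. The labels give no batch or date, so preparation and group cannot be told apart. The median absolute log2 difference of the 38 genes between the replicates of a group came to 0.13 for WT, 0.19 for GFP and 0.04 for RBMXL3, against 0.12, 0.18 and 0.08 over all genes tested.

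Sequences of 2 kinds are printed here for reference. The first is a pair of exons whose presence differs between annotated transcripts of BUB1 and STAG2. Exon 2 of BUB1 (chr2:110674306-110674365, GRCh38, minus strand) has 60 coding bases and is present in the transcript BUB1-201 and absent from BUB1-212. It is printed with 20 bases of the neighbouring exons on each side, 5′ to 3′, from the GENCODE 29 transcript, and the capitals mark the exon. Exon 32 of STAG2 (chrX:124090854-124090964, plus strand) has 111 coding bases and is present in STAG2-203 and absent from STAG2-202 and STAG2-204. Both lengths are multiples of 3.
BUB1 with exon 2: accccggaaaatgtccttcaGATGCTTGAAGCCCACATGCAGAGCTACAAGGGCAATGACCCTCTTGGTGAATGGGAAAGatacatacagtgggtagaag
BUB1 without exon 2: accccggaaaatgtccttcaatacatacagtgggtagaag
STAG2 with exon 32: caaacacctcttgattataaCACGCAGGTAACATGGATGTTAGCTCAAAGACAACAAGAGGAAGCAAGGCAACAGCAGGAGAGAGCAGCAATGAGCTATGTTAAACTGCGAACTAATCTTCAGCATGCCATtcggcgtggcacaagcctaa
STAG2 without exon 32: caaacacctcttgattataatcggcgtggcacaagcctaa

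The other kind is the cell cycle promoter pair, shown for 4 genes as 30 bases that end with the TTTGAA nearest before the RefSeq start (GRCh38.p14, all on the plus strand). Capitals mark TTTGAA, the usual core of the cell cycle homology region, and ATTGG, which is CCAAT read from the other strand. The stretches are chr15:59105093-59105122 for CCNB2, chr15:69414270-69414299 for KIF23, chr12:53268244-53268273 for ESPL1 and chr10:60778441-60778470 for the second listed start of CDK1. In CCNB2 a CCAAT begins 1 base before the stretch, and in CDK1 the nearest one lies further upstream.
CCNB2: caatggggcgcaagcgacgcggtaTTTGAA
KIF23: tgcggacgggcgctgATTGGcccgTTTGAA
ESPL1: cccgctgATTGGcagccgcggataTTTGAA
CDK1: tccggggccctttagcgcggtgagTTTGAA

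The promoters of these genes often held both elements. RefSeq windows of 250 bases before to 50 bases after the start were available for 32 of the 38 genes, as 44 windows, and were searched on both strands for TTTGAA, for its variant form TTCGAA and for the NF-Y box CCAAT, with overlaps allowed. TTTGAA occurred in 18 of the 44 windows (40.9%), TTCGAA in 4 (9.09%) and CCAAT in 32 (72.7%). Over all 35116 windows of the same length the shares were 15.2%, 1.45% and 34.6%. Either form of the cell cycle homology region stood together with CCAAT in 19 windows (43.2%) of 17 genes, against 6.38% of all windows. A match is a match of letters and not a bound site.

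**Figure D1:**
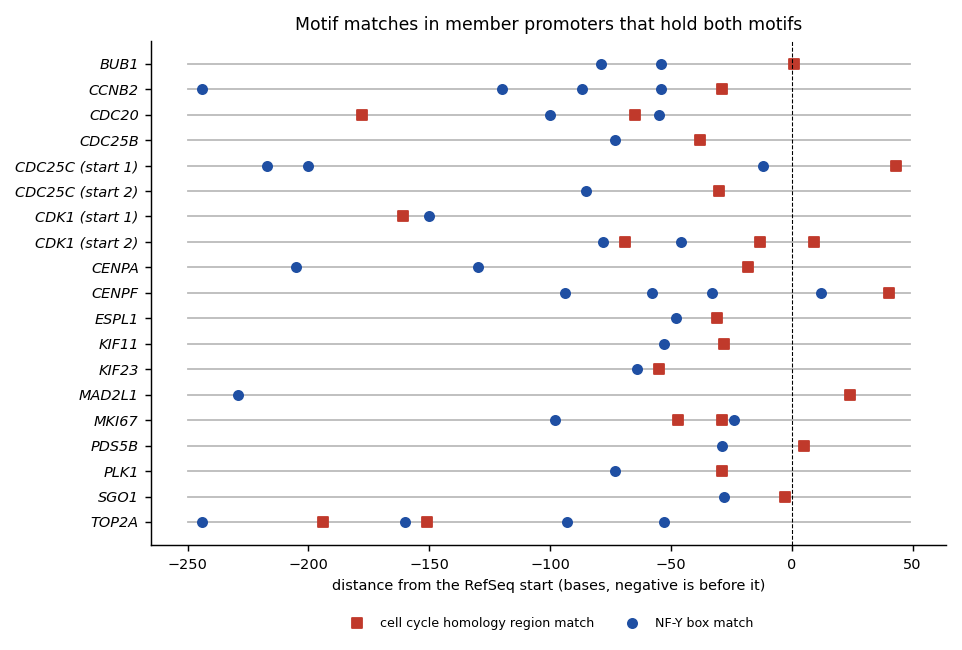
Each line is one RefSeq promoter window of a gene that holds both elements, with distance from the start in bases on the x axis, red squares for TTTGAA or TTCGAA (cell cycle homology region) and blue circles for CCAAT (NF-Y box). The 19 windows belong to 17 genes, and in CCNB2 the TTTGAA starts 29 bases before the start and the nearest CCAAT 54 bases before it.

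Levels per length, as TPM summed over a gene's annotated transcripts, ranged widely within the set. The highest mean over the 6 libraries was that of CCNB1, cyclin B1, with 254 to 276 TPM, followed by CDC20 with 221 to 257 TPM and RAD21 with 206 to 251 TPM. The lowest were CENPE, the kinetochore motor CENP-E, with 9.98 to 16.2 TPM and STAG1, one of the alternative STAG subunits of cohesin, with 12.1 to 17.3 TPM. STAG2, the other STAG subunit measured, was at 30.3 to 57.6 TPM, so its lowest library was above the highest library of STAG1. The gene PTTG1, which encodes securin, has near-identical copies in the genome, so its values are uncertain.

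**Figure D2:**
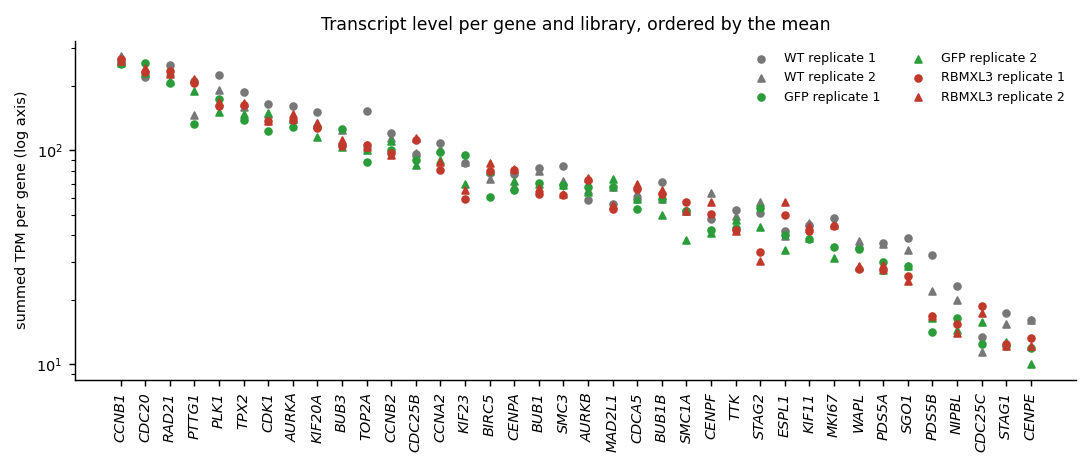
Summed TPM of each gene (log axis) in each of the 6 libraries, genes ordered by their mean, with circles for replicate 1 and triangles for replicate 2. CCNB1 lies highest, at 254 to 276 TPM, and CENPE lowest, at 9.98 to 16.2 TPM.

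Against GFP, which shares transduction and the tag, 4 of the 38 genes were called at a limma Benjamini-Hochberg adjusted p under 0.05: CCNB1, CCNB2 and KIF23 were lower and CENPE was higher in RBMXL3. That is 10.5% of the set, where 20.9% of all genes tested were called, 10.5% higher and 10.4% lower, so the share of the set lay at or under the background, which is no result about the set. Against WT, 12 of the 38 genes were called, all lower: CCNB2, AURKA, BUB1, BUB1B, KIF23, STAG1, STAG2, NIPBL, WAPL, PDS5A, PDS5B and SGO1. The background there was 29.9% called and 15.3% called lower, against 31.6% of the set. None of the 38 was called higher against WT, while 1 was higher at an unadjusted p under 0.05, and edgeR and DESeq2 also called 0 higher. CCNB2 and KIF23 were lower against both controls, 2 of 38, where 6.86% of all genes tested were lower against both. No member was higher against both, where 6.88% of all genes were, and edgeR and DESeq2 also called 0 there, with 0 at an unadjusted limma p under 0.05 in both comparisons. Both comparisons use the same RBMXL3 libraries.

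Single libraries moved these counts. Against GFP the count was 9 without GFP replicate 1 and 12 without GFP replicate 2, and 1 without either RBMXL3 replicate: CCNB2 alone without replicate 1 and CENPE alone without replicate 2. Against WT it was 23 without either GFP replicate, 3 without RBMXL3 replicate 1 (CCNB2, PDS5A and PDS5B), and 2 (CCNB2 and PDS5A) without RBMXL3 replicate 2 or without WT replicate 1. Against both controls the count was 6 without either GFP replicate, 1 (CCNB2) without WT replicate 1 or RBMXL3 replicate 1, and 0 by limma without RBMXL3 replicate 2. The GFP libraries enter the comparison with WT only through the shared estimate of the spread.

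The controls also differed from each other in this set. GFP was lower than WT in 4 of the 38 genes, CENPE, CENPF, NIPBL and PDS5B, or 10.5%, and the background was 3.67% called, 1.91% lower. No gene was called higher in GFP by limma, edgeR or DESeq2, where the background was 1.76%, and 2 were higher at an unadjusted p under 0.05. The count of 4 was 0 without WT replicate 1 or without WT replicate 2, 15 without GFP replicate 2, and 1 (CENPE) without either RBMXL3 replicate. The median log2 change of the 38 genes was -0.05 against GFP and -0.23 against WT, and -0.13 for GFP against WT. The medians over all genes tested were 0.00, -0.01 and -0.01. Both RBMXL3 libraries lay below all 4 controls in 13 of the 38 genes, where this held for 23.6% of all genes tested, and above them in 2 (CDC25B and ESPL1), where it held for 22.5%. In bulk RNA, fewer cells in mitosis and less RNA per cell cannot be told apart.

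**Figure D3:**
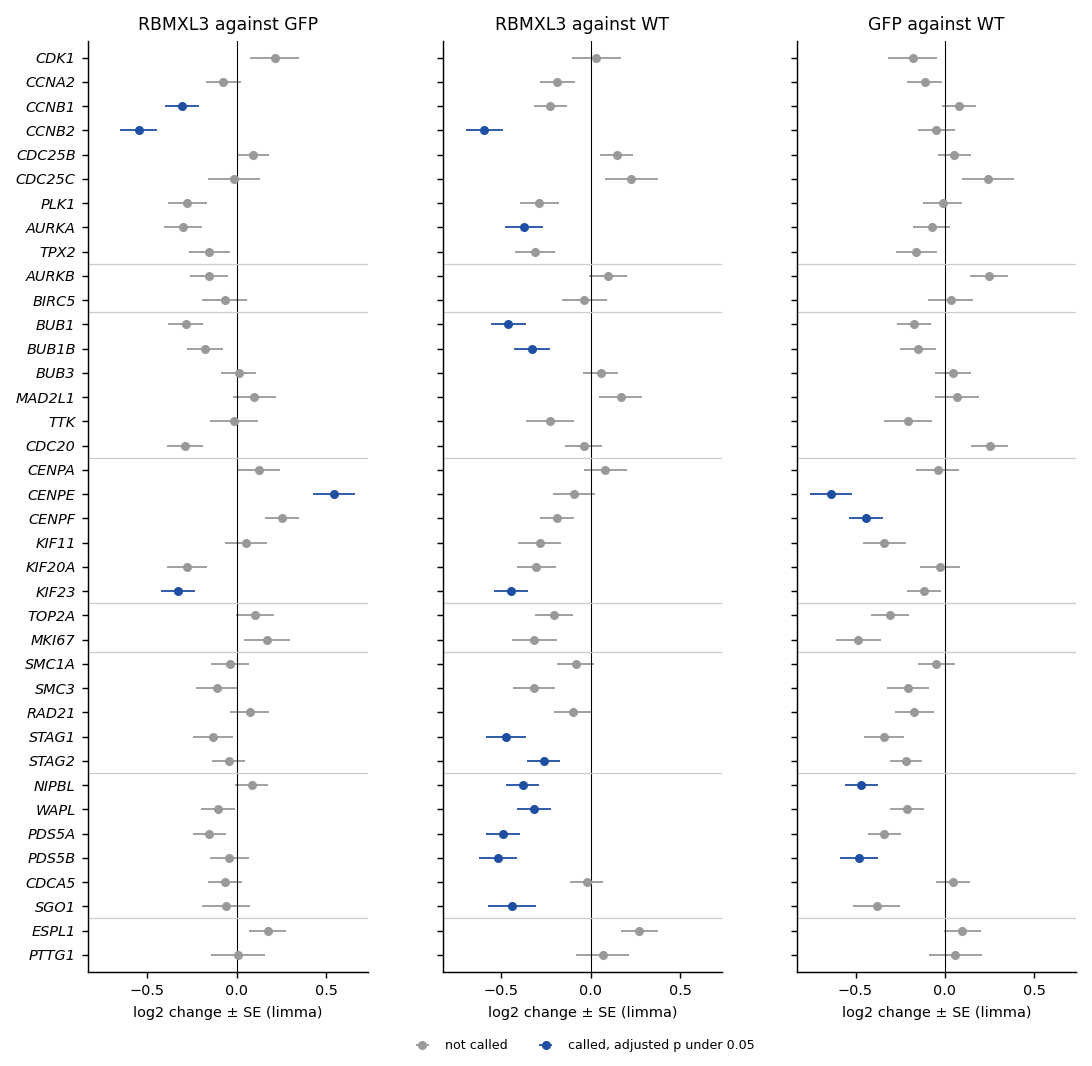
Log2 change (x axis, on the log2(value + 1) scale) with its standard error for each gene in the 3 comparisons, blue where the limma adjusted p is under 0.05 and grey otherwise, with lines between the roles. The blue points number 4 in RBMXL3 against GFP, 12 in RBMXL3 against WT and 4 in GFP against WT, and those of WAPL, PDS5A, PDS5B and NIPBL lie left of 0 in the comparison with WT.

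Among the mitotic kinases, cyclins and phosphatases, the B-type cyclins were the genes that were called lower against GFP. CCNB2, cyclin B2 (ENSG00000157456.8; chr15:59105078-59125045, GRCh38), had normalised read counts of 3045 and 2785 in WT, 2646 and 2998 in GFP, with 1987 and 1854 in RBMXL3. Both RBMXL3 libraries were below all 4 controls, with a gap wider than the whole range of the controls or of the RBMXL3 pair. The log2 change was -0.55 (SE 0.10) against GFP and -0.60 (SE 0.10) against WT, called by limma at adjusted p 0.00356 and 0.00137. As counted above, the call against GFP did not hold without RBMXL3 replicate 2, where the log2 change was -0.50. Summed TPM gave -0.13 and -0.29 for CCNB2 (limma adjusted p 0.379 and 0.0871), so the fall was not called there. In that table the median change against GFP over all genes tested was itself 0.13.

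CCNB1 (ENSG00000134057.15; chr5:69167010-69178245), the other B-type cyclin, was at 6798 and 6933 in WT, 7150 and 7359 in GFP, with 6029 and 5708 in RBMXL3. The RBMXL3 pair was again lowest. The log2 change was -0.31 (SE 0.09) against GFP, with a limma adjusted p of 0.0361, and -0.23 against WT, with 0.0859. In summed TPM the change against GFP was 0.05, so its sign turned, but the median over all genes tested there was 0.13. Quantile normalization gave -0.20 against GFP (limma adjusted p 0.116), and the call was lost without either WT replicate (0.0550 and 0.0546) or either RBMXL3 replicate (0.213 and 0.363).

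CDK1 (ENSG00000170312.17; chr10:60778331-60794852), the kinase that both cyclins activate, was at 3208 and 2936 in WT, 2264 and 3228 in GFP, with 3174 and 3100 in RBMXL3. The RBMXL3 values lay within the range of the controls, and the low value was GFP replicate 1. Its log2 changes were 0.21 (SE 0.14) against GFP and 0.03 (SE 0.14) against WT, neither called (limma adjusted p 0.295 and 0.886). Leaving out that library gave a change of -0.04 against GFP, and leaving out GFP replicate 2 instead gave 0.47.

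AURKA (ENSG00000087586.18; chr20:56369389-56392337), the Aurora A kinase of centrosomes and spindle poles, was at 5624 and 4842 in WT, 4675 and 5247 in GFP, with 3980 and 4067 in RBMXL3. Both RBMXL3 libraries were below every control. Its fall of -0.37 against WT (log2 scale, SE 0.11) was called, at a limma adjusted p of 0.0191, while the -0.30 against GFP, at 0.062, was not. The call against WT was lost with quantile normalization (0.0702), and without WT replicate 1 (0.182) or either RBMXL3 replicate (0.162 and 0.139). Its changes in summed TPM were -0.06 against WT and 0.10 against GFP, where the medians over all genes tested were 0.03 and 0.13. PLK1, the Polo-like kinase, and TPX2, the activator of Aurora A, were also below all 4 controls in both RBMXL3 libraries and were not called in either comparison. The other members of this role, CCNA2, CDC25B and CDC25C, had log2 changes between -0.07 and 0.09 against GFP, none of them called. In the chromosomal passenger complex, AURKB and BIRC5 were called in no comparison, with log2 changes of -0.15 and -0.07 against GFP and 0.10 and -0.04 against WT.

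In the spindle checkpoint, 2 of 6 genes were called lower against WT, where 15.3% of all genes tested were lower. Against GFP 0 of 6 were called by limma, edgeR and DESeq2, with 2 lower at an unadjusted p under 0.05, where 10.4% of all genes were called lower. BUB1 (ENSG00000169679.15; chr2:110637698-110678114), the kinase that recruits checkpoint proteins to kinetochores, was at 5303 and 4925 in WT, 4364 and 4691 in GFP, with 3662 and 3757 in RBMXL3. The groups did not overlap and stood in the order WT, GFP, RBMXL3. The log2 change was -0.46 (SE 0.10; limma adjusted p 0.00389) against WT and -0.29 (SE 0.10; adjusted p 0.0505) against GFP, just outside the threshold. With the filter raised to a mean of at least 5, the change against GFP was called (limma adjusted p 0.0473). The call against WT was lost without WT replicate 1 (limma adjusted p 0.0549) or either RBMXL3 replicate (0.0738 and 0.0595), and in summed TPM (0.0564). BUB1B, which encodes the checkpoint protein BUBR1, was lower against WT by limma, with a log2 change of -0.33 (adjusted p 0.0266), and shares 10.2% of its exon bases with the readthrough gene BUB1B-PAK6. That call was lost with quantile normalization (limma adjusted p 0.0665), without a filter (0.0741), without WT replicate 1 (0.216) or either RBMXL3 replicate (0.182 without replicate 2), and in summed TPM, where the change was -0.028 (0.907). MAD2L1, BUB3, TTK and CDC20 were not called at gene level.

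Among the centromere and spindle motor genes the changes went both ways. KIF23 (ENSG00000137807.16; chr15:69414246-69448427), a motor of the central spindle that is needed for cytokinesis, was at 4708 and 4514 in WT, 4450 and 4059 in GFP, with 3360 and 3406 in RBMXL3. Both RBMXL3 libraries were below all 4 controls. The log2 change was -0.33 (SE 0.09; limma adjusted p 0.0289) against GFP and -0.44 (SE 0.09; adjusted p 0.00462) against WT. The call against GFP was lost with quantile normalization (limma adjusted p 0.067) and without a filter (0.0807). In summed TPM the changes were -0.38 against GFP and -0.49 against WT, and neither was called (limma adjusted p 0.158 and 0.0791). As counted above, neither call held without RBMXL3 replicate 1 (log2 changes -0.32 and -0.43) or without RBMXL3 replicate 2 (-0.34 and -0.45). That against WT also did not hold without WT replicate 1 (-0.41).

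CENPE (ENSG00000138778.14; chr4:103105806-103198409), the motor that carries chromosomes to the spindle equator, was at 1700 and 1575 in WT, 930 and 1168 in GFP, with 1589 and 1477 in RBMXL3. The GFP pair was low, and the RBMXL3 pair overlapped the WT pair. It was higher in RBMXL3 than in GFP by 0.55 on the log2 scale (SE 0.12; limma adjusted p 0.00744), lower in GFP than in WT (-0.64; adjusted p 0.0174), and differed from WT by -0.09 in RBMXL3 (adjusted p 0.575). In summed TPM the change against GFP was 0.21 and not called (limma adjusted p 0.307), and the call was also lost without a filter (0.0643) and without RBMXL3 replicate 1 (0.0931). CENPF, a large kinetochore and nuclear matrix protein, was called lower in GFP than in WT, with -0.44 (limma adjusted p 0.0297). Its log2 change in RBMXL3 was 0.25 against GFP and -0.19 against WT, neither called. The spindle motors KIF11 and KIF20A and the centromeric histone CENPA were not called in any comparison.

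Of the mitotic chromosome proteins, TOP2A (ENSG00000131747.15; chr17:40388516-40417950), the topoisomerase that untangles sister chromatids, was at 11228 and 10163 in WT, 8055 and 9222 in GFP, with 9552 and 8963 in RBMXL3. The RBMXL3 values lay between those of GFP and WT, overlapping GFP. Its log2 changes of 0.10 against GFP and -0.21 against WT were not called (limma adjusted p 0.534 and 0.161). MKI67, the Ki-67 proliferation antigen, was not called either, with 0.17 against GFP and -0.31 against WT, nor in GFP against WT, with -0.48 (limma adjusted p 0.0546).

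The cohesin genes were called lower in the comparison with WT and not in that with GFP, and most of those calls depended on single libraries. Of the 11 genes of the ring and its regulators, 7 were called lower against WT (STAG1, STAG2, NIPBL, WAPL, PDS5A, PDS5B and SGO1), which is 63.6% where 15.3% of all genes tested were lower. The count of 7 was 1 (PDS5A) without WT replicate 1 or without RBMXL3 replicate 2, 2 (PDS5A and PDS5B) without RBMXL3 replicate 1, and 3 in summed TPM. Against GFP 0 of the 11 were called, and 0 passed at an unadjusted p under 0.05, by limma, edgeR and DESeq2 alike. GFP was lower than WT in 2 of them, NIPBL and PDS5B, and in 7 at an unadjusted p under 0.05. The median log2 change of the 11 genes was -0.32 for RBMXL3 against WT, -0.22 for GFP against WT and -0.06 for RBMXL3 against GFP. In RBMXL3 against WT all 11 changes were negative, but under quantile normalization 8 were negative and 5 were called lower.

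In the ring, SMC1A (ENSG00000072501.19; chrX:53374149-53422728), one of its long coiled-coil subunits, was at 8180 and 7602 in WT, 8238 and 7065 in GFP, with 7542 and 7330 in RBMXL3. The groups overlapped, and its log2 changes of -0.04 against GFP and -0.08 against WT (limma adjusted p 0.834 and 0.57) became 0.08 and 0.00466 under quantile normalization and 0.30 and 0.07 in summed TPM. RAD21 (ENSG00000164754.16; chromosome 8, 116845935 to 116874866), the subunit that separase cuts, was at 14249 and 13030 in WT, 11342 and 12888 in GFP, with 13170 and 12285 in RBMXL3. These groups overlapped too, with log2 changes of 0.07 against GFP and -0.10 against WT, the latter 0.05 under quantile normalization, and limma adjusted p-values of 0.671 and 0.516. SMC3 was not called.

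The STAG subunits, of which each ring holds one, were called lower against WT. STAG1 was at 1687 and 1440 in WT, 1150 and 1310 in GFP, with 1147 and 1086 in RBMXL3, a log2 change of -0.47 against WT (SE 0.11; limma adjusted p 0.0081). STAG2 was at 4266 and 4390 in WT, 3737 and 3692 in GFP, with 3583 and 3620 in RBMXL3, a log2 change of -0.26 against WT (SE 0.09; limma adjusted p 0.0445). Both RBMXL3 libraries were the lowest in each case, close under GFP. The STAG1 call was lost in summed TPM (log2 change -0.38 against WT, limma adjusted p 0.0722). As counted above, it also did not hold without WT replicate 1 (log2 change -0.36) or either RBMXL3 replicate (-0.51 and -0.43). The STAG2 call was narrow: edgeR and DESeq2 gave adjusted p-values of 0.0547 and 0.0668. By contrast, STAG2 in summed TPM was called lower against both controls, while its log2 change in normalised read counts was -0.04 against GFP. That sum includes STAG2-202, at 22.9 and 6.76 TPM in GFP and listed at 0 in both RBMXL3 libraries. The part of this transcript in the call was not tested. Of the exon bases of STAG1, 21.2% lie under PCCB on the opposite strand, and whether the authors counted by strand is not given in the sources used here.

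Of the regulators, 5 of 6 were called lower against WT, where 15.3% of all genes were. Without WT replicate 1 only PDS5A was called, and the limma adjusted p was 0.0608 for NIPBL, 0.140 for WAPL, 0.0645 for PDS5B and 0.231 for SGO1. NIPBL, which loads cohesin onto chromatin, was at 2787 and 2805 in WT, 2030 and 2003 in GFP, with 2185 and 2098 in RBMXL3. PDS5B, which docks the factors that release or lock the ring, was at 1758 and 1530 in WT, 1104 and 1239 in GFP, with 1145 and 1129 in RBMXL3. In both genes the GFP and RBMXL3 pairs lay together below the WT pair. NIPBL fell by 0.38 on the log2 scale in RBMXL3 and by 0.47 in GFP, both against WT, with limma adjusted p-values of 0.00885 and 0.0232. PDS5B fell by 0.52 in RBMXL3 and by 0.48 in GFP, with limma adjusted p-values of 0.00389 and 0.0364.

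PDS5A, the paralogue of PDS5B, was at 4032 and 3837 in WT, 3033 and 3178 in GFP, with 2778 and 2807 in RBMXL3. WAPL, which opens the ring, was at 3385 and 3260 in WT, 2992 and 2741 in GFP, with 2670 and 2655 in RBMXL3. In both, each RBMXL3 library was below all controls. The log2 changes against WT were -0.49 for PDS5A and -0.32 for WAPL (limma adjusted p 0.00229 and 0.0245), and against GFP they were -0.15 and -0.10, not called. SGO1, shugoshin, which protects centromeric cohesion, was at 1350 and 1131 in WT, 836 and 1063 in GFP, with 959 and 852 in RBMXL3. Its log2 change against WT was -0.44 (limma adjusted p 0.0253), and 17.7% of its exon bases lie under SGO1-AS1 on the opposite strand. CDCA5, which encodes the cohesion factor sororin, was called in no comparison, with a log2 change of -0.02 against WT.

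Separase and securin were called in no comparison. ESPL1 (ENSG00000135476.12; chr12:53268299-53293643), separase, was at 2949 and 3149 in WT, 3527 and 3016 in GFP, with 3619 and 3745 in RBMXL3. Both RBMXL3 libraries were above all controls, with log2 changes of 0.17 against GFP and 0.27 against WT (limma adjusted p 0.252 and 0.0639), and quantile normalization gave 0.38 against WT (adjusted p 0.0134). Without GFP replicate 1 it was called higher against both controls (limma adjusted p 0.0257 against GFP and 0.00686 against WT), and without GFP replicate 2 against WT (0.00673). PTTG1 (ENSG00000164611.13; chr5:160421822-160428744), securin, was at 2052 and 1537 in WT, 1595 and 2148 in GFP, with 1869 and 1852 in RBMXL3. The replicates of WT and of GFP differed by more than any group did, and its changes of 0.01 and 0.07 on the log2 scale had limma adjusted p-values of 0.979 and 0.767.

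**Figure D4:**
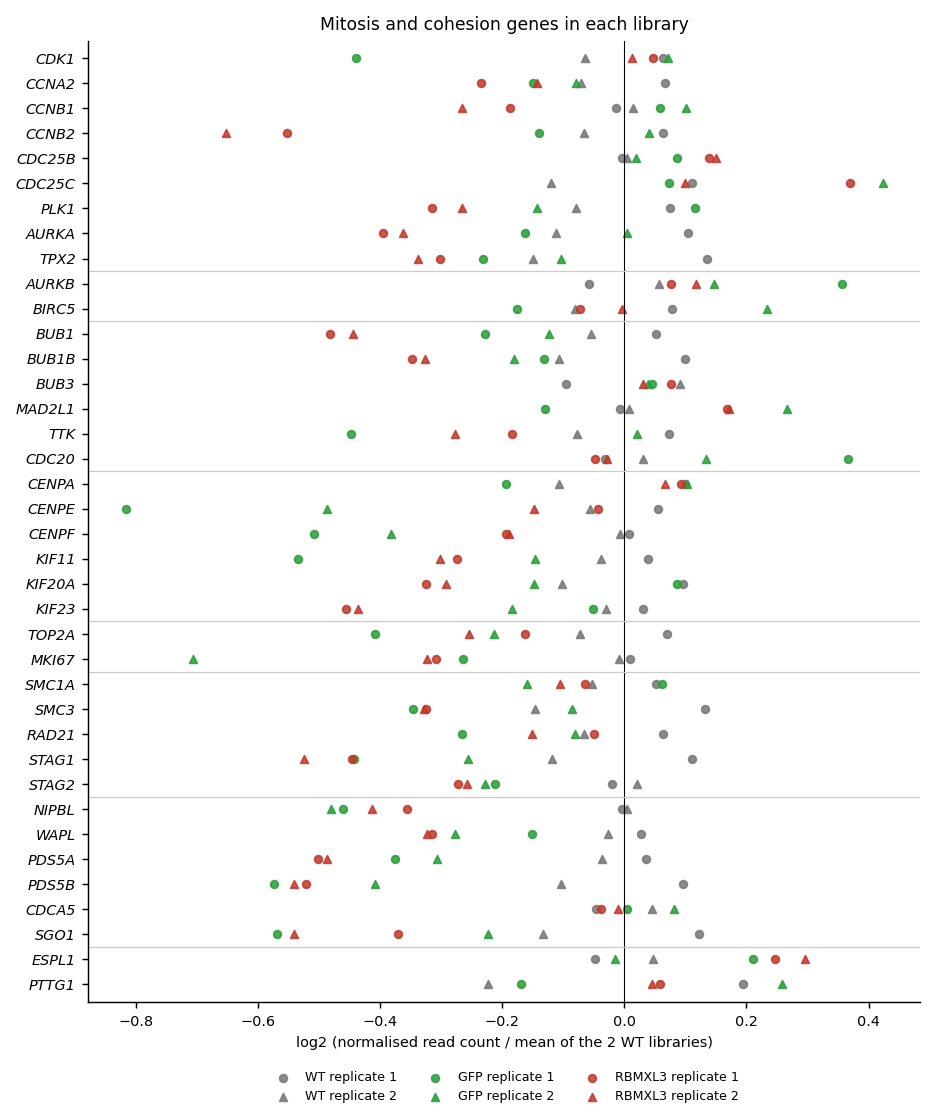
Each row is one gene, with the log2 ratio of its normalised read count in each library to the mean of the 2 WT libraries on the x axis, in grey for WT, green for GFP and red for RBMXL3, and lines between the roles. The RBMXL3 libraries of CCNB2 (1987 and 1854) and KIF23 (3360 and 3406) lie left of all controls, and the GFP and RBMXL3 libraries of NIPBL and PDS5B lie together left of WT.

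Calls were also counted in genes with and without both promoter elements, with no test of the difference. Of the 17 genes with both in a window, 2 were called against GFP and 5 against WT. Of the 15 other genes with a promoter entry, 2 and 6 were called. Of all genes tested 20.9% and 29.9% were called, so both groups lay under the background against GFP. The median log2 changes were 0.05 and -0.21 with both elements, and -0.10 and -0.26 for the others. CCNB2 and KIF23, lower against both controls, hold both elements. So do ESPL1, above all controls but not called, and CDK1, which was called in no comparison.

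The wider machinery was described with 7 lists of 141 other genes, of which 135 were tested. Against GFP 12 were called higher and 20 lower (23.7%), against WT 12 and 28 (29.6%), and in GFP against WT 3 and 6 (6.67%). Over all genes tested the shares called were 20.9%, 29.9% and 3.67%, so the first pair lies near the background. Against both controls 5 of the 135 were higher and 17 lower, where 6.88% of all genes were higher and 6.86% lower. The G1/S and replication licensing list had 6 of 24 genes lower and 1 higher against both controls, and the list of the anaphase-promoting complex and its partners had 4 of 19 lower. The kinetochore list had 4 of 33 lower against both, while of the 8 condensin genes none was called in one direction against both, by limma, with 1 called higher against each control. Median log2 changes against GFP and WT were -0.22 and -0.22 for G1/S, -0.15 and -0.16 for the anaphase-promoting complex and -0.01 and -0.13 for the kinetochore.

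By the size of the smaller of their changes, the leading falls among these lists were CCNE1, ANAPC15 and CDC26. CCNE1, the G1/S cyclin E1, was at 2148 and 1824 in WT, 1930 and 2037 in GFP, with 1272 and 1346 in RBMXL3, with log2 changes of -0.59 against each control (limma adjusted p 0.00286 against GFP and 0.00176 against WT). ANAPC15, a small subunit of the anaphase-promoting complex that acts in checkpoint release, was at 1099 and 1191 in WT, 1587 and 1107 in GFP, with 754 and 770 in RBMXL3, with -0.78 against GFP and -0.57 against WT (limma adjusted p 0.00308 and 0.0102). CDC26, another small subunit of that complex, was at 292 and 246 in WT, 213 and 272 in GFP, with 166 and 164 in RBMXL3, with -0.49 and -0.63 (limma adjusted p 0.0352 and 0.00803). In all 3 genes both RBMXL3 libraries were below every control. CCNE1 kept both calls whichever library was left out, but in summed TPM its change against GFP was -0.32 and not called (limma adjusted p 0.144). Summed TPM also ended both calls of ANAPC15 (0.0709 against GFP and 0.0722 against WT) and of CDC26, whose changes there were -0.067 (0.763) and -0.33 (0.140). ANAPC15 lost its call against WT without either WT or either RBMXL3 replicate (limma adjusted p 0.0525 to 0.0898), and CDC26 lost a call without either WT replicate, GFP replicate 2 or either RBMXL3 replicate (0.051 to 0.191).

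The leading rises were REC8, PKMYT1 and CCND1. REC8, the meiotic counterpart of RAD21, was at 120 and 115 in WT, 161 and 179 in GFP, with 287 and 306 in RBMXL3, with log2 changes of 0.73 against GFP and 1.18 against WT (limma adjusted p 0.00352 and 0.000123). PKMYT1, a kinase that restrains CDK1, was at 1272 and 1278 in WT, 1290 and 1389 in GFP, with 1684 and 1906 in RBMXL3, with 0.41 and 0.48 (limma adjusted p 0.0147 and 0.0044). CCND1, cyclin D1, was at 1231 and 1120 in WT, 1373 and 1405 in GFP, with 1777 and 1822 in RBMXL3, with 0.37 and 0.61 (limma adjusted p 0.0205 and 0.000958). Both RBMXL3 libraries were above every control in all 3. Without RBMXL3 replicate 2 the calls against GFP were lost for REC8 (limma adjusted p 0.0565), PKMYT1 (0.252) and CCND1 (0.221), and that of PKMYT1 against WT (0.119). Without RBMXL3 replicate 1 those of PKMYT1 (0.0668) and CCND1 (0.162) against GFP were lost. Summed TPM kept both calls of REC8 and ended those of PKMYT1 against WT (limma adjusted p 0.0514) and of CCND1 against GFP (0.0906).

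Transcript usage was examined in the table of salmon TPM, where a share is a transcript's percentage of the TPM of all GENCODE 29 transcripts of its gene. Of the 38 genes, 35 had at least 2 transcripts above the filter. Usage was called by limma's diffSplice (adjusted Simes p under 0.05) in 9 genes against GFP (CDC25B, PLK1, BUB1, MAD2L1, CDC20, KIF23, RAD21, STAG2 and PDS5B), where 12% of the 8882 genes tested were called. Against WT it was called in 8 (PLK1, BUB1, MAD2L1, KIF23, RAD21, STAG2, PDS5A and PDS5B), also with a background of 12%. In GFP against WT 1 gene, PLK1, was called, against 1.72%. The count against GFP was 4 (BUB1, KIF23, RAD21 and STAG2) without RBMXL3 replicate 1. Against WT it was 4 (PLK1, BUB1, KIF23 and STAG2) without RBMXL3 replicate 1 and 5 without RBMXL3 replicate 2. A test of the shares themselves called 3 genes against GFP (BUB1, KIF23 and PDS5B), where 3.39% of all genes tested were called. It called 4 against WT (these and RAD21), where 3.85% were, and 0 in GFP against WT by limma, where 1.03% were. Of the 145 transcripts tested in these genes, 4 were relatively higher and 6 relatively lower against both controls, where 2.46% of all 36184 transcripts were called in one direction against both.

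In BUB1 the main transcripts took different shares in RBMXL3 and in both controls. BUB1-212 (ENST00000535254.6), which lacks exon 2, held 24.7% and 35.9% of BUB1 TPM in WT and 36.9% and 36.5% in GFP, and it was listed at 0 in both RBMXL3 libraries. BUB1-201 (ENST00000302759.11), which includes exon 2, held 74.0% and 62.2% in WT, 59.8% and 59.5% in GFP, with 95.7% and 96.2% in RBMXL3. No RBMXL3 library overlapped the controls in the share of either transcript. In TPM, BUB1-201 was at 61.1 and 49.8 in WT, 42.1 and 41.2 in GFP, with 60.1 and 63.8 in RBMXL3, so its level overlapped WT. The diffSplice adjusted p of BUB1-212 was 2.66e-06 against GFP and 2.36e-06 against WT, and limma on the shares themselves gave 0.0292 and 0.0333. The call of BUB1-201 against WT was lost without RBMXL3 replicate 2 (diffSplice adjusted p 0.0812) and on the shares (limma adjusted p 0.0651). By summed TPM, exon 2 was included at 75.2% and 63.6% in WT, 62.2% and 62.5% in GFP, with 100% and 100% in RBMXL3. BUB1-212 was the only transcript counted as skipping the exon, so the 100% restates its listing at 0 and is no separate result. The sequence with exon 2 printed above is thus the only annotated form with TPM above 0 in the RBMXL3 libraries among transcripts that span the exon. BUB1-212 also has 136 more bases at its 3′ end, which lie outside the gene's coding part.

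Another 3 transcripts were listed at 0 in both RBMXL3 libraries. KIF23-206 (ENST00000558585.5), annotated as a processed transcript that starts at an exon of its own and lacks the first 6 exons of KIF23-202, held 11.6% and 11.1% in WT and 6.38% and 6.77% in GFP. RAD21-203 (ENST00000517749.2), a short transcript of 2 exons from the 3′ part of RAD21, held 19.8% and 36.4% in WT and 47.7% and 21.9% in GFP. STAG2-202 (ENST00000371144.7), which lacks exon 32, held 22.8% and 20.6% in WT and 42.6% and 15.4% in GFP. Each was called relatively lower against both controls by diffSplice, with adjusted p-values between 4.04e-06 and 0.00338. The call of RAD21-203 against WT was lost without RBMXL3 replicate 1 (diffSplice adjusted p 0.169) and without RBMXL3 replicate 2 (0.0906). On the shares themselves KIF23-206 was called (limma adjusted p 0.0468 against GFP and 0.0239 against WT), while RAD21-203 (0.14 and 0.188) and STAG2-202 (0.153 and 0.212) were not.

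Across the table, transcripts listed at 0 in both libraries of a group were few, but more frequent for RBMXL3 than for WT or GFP. Of 12425 transcripts with at least 5 TPM in all 4 control libraries, 132 (1.06%) were listed at 0 in both RBMXL3 libraries. The same count was 1 of 11956 for WT, against the other 4 libraries, and 5 of 12431 for GFP. The RBMXL3 libraries had the fewest reads, TPM keeps no depth, and the part of depth in these zeros was not tested. This count was added after the transcript values were seen.

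Exon 32 of STAG2 is skipped in other transcripts as well, so its inclusion was summed over all transcripts that span it. Inclusion was 34.5% and 24.7% in WT, 27.4% and 30.5% in GFP, with 36.7% and 45.3% in RBMXL3. The RBMXL3 libraries were highest, with the nearest control, WT replicate 1, close under the lower of them. STAG2-203, the form with the exon, held 21.9% and 29.5% in RBMXL3 and 12.5% to 16.1% in the controls, and was not called against either by diffSplice (adjusted p 0.387 against GFP and 0.163 against WT). In TPM, STAG2-203 was at 6.33 and 8.08 in WT, 8.65 and 6.64 in GFP, with 7.36 and 8.92 in RBMXL3. Its level thus overlapped the controls, while the STAG2 sum was 33.6 and 30.3 TPM in RBMXL3 and 43.8 to 57.6 in the controls.

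In MAD2L1, the checkpoint protein that blocks CDC20, the transcript MAD2L1-205, annotated with a retained intron, held 32.4% and 25.1% in WT, 31.8% and 35.9% in GFP, with 0 and 3.44% in RBMXL3. It was relatively lower against both controls, with diffSplice adjusted p-values of 0.0019 against GFP and 0.0157 against WT, and without RBMXL3 replicate 1 both calls were lost (0.0958 and 0.325). MAD2L1-202, which lacks exon 3 and is annotated as a target of nonsense-mediated decay, held 25.2% and 55.4% in WT, 51.1% and 44.6% in GFP, with 78.0% and 75.1% in RBMXL3. It was called against WT (diffSplice adjusted p 0.0335) and not against GFP (0.278), and the call was kept only without WT replicate 2 among the 6 libraries left out in turn (0.0728 to 0.252 in the other cases). Exon 3 inclusion was 21.2% and 22.2% in RBMXL3, 23.4% and 29.2% in GFP, and 50.9% and 24.3% in WT, where the 2 replicates stood far apart.

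In PDS5B the transcript PDS5B-203 (ENST00000450460.5), annotated as a target of nonsense-mediated decay, was listed at 0 in both WT libraries, held 1.13% and 0 in GFP, and held 22.9% and 24.4% in RBMXL3. It was called relatively higher by diffSplice (adjusted p 0.00329 against GFP and 0.000355 against WT) and on the shares (limma adjusted p 0.0348 and 0.0258). The coding transcript PDS5B-201 held 48.0% and 65.8% in WT, 82.3% and 65.3% in GFP, with 42.6% and 42.2% in RBMXL3. The 2 RBMXL3 libraries were thus alike and outside the controls for both transcripts. PDS5B-201 was relatively lower by diffSplice (adjusted p 0.00837 and 0.0101), but not on the shares (limma adjusted p 0.282 and 0.629), nor without either RBMXL3 replicate, where the diffSplice adjusted p was 0.638 or more.

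**Figure D5:**
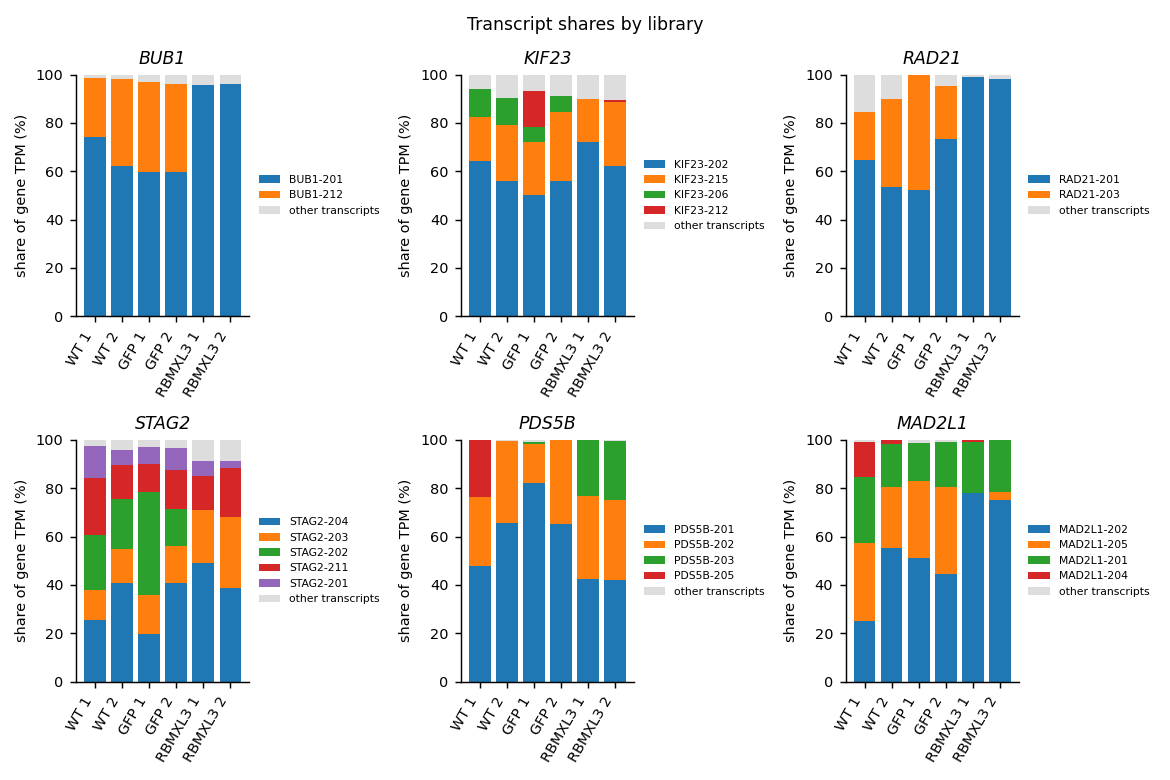
Stacked bars of the share of each transcript in the gene's TPM (y axis, percent, from 0) in each of the 6 libraries for BUB1, KIF23, RAD21, STAG2, PDS5B and MAD2L1, with other transcripts in light grey. BUB1-212 (24.7% to 36.9% in the controls) and RAD21-203 (19.8% to 47.7%) are missing from both RBMXL3 bars, and PDS5B-203 appears there at 22.9% and 24.4%.

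In the main test, the remaining named transcripts were called in at most 1 comparison with RBMXL3, or held small shares, or differed between the controls. RAD21-201, the form with all 14 exons, held 98.9% and 98.3% in RBMXL3 and 52.1% to 73.4% in the controls, and was called against WT only (diffSplice adjusted p 0.0454, with 0.258 against GFP). That call was lost without WT replicate 1 (0.328), WT replicate 2 (0.155), RBMXL3 replicate 1 (0.287) or RBMXL3 replicate 2 (0.300), with a pseudocount of 0.1 (0.143) and on the shares (limma adjusted p 0.0950). NIPBL-202, a form with a different last exon, held 46.5% and 41.7% in RBMXL3 and 16.9% to 34.0% in the controls, and was not called against either (diffSplice adjusted p 0.0734 and 0.526). In TPM, NIPBL-202 was at 6.83 and 6.77 in WT, 4.33 and 2.45 in GFP, with 7.17 and 5.80 in RBMXL3, so its level overlapped WT. PLK1-207 held 21.9% and 11.6% in WT, was listed at 0 in both GFP libraries and held 4.31% and 2.68% in RBMXL3, so the PLK1 call is one in which the controls differ from each other. BUB1-210 and STAG2-209, called relatively higher against both controls by diffSplice, held at most 2.23% and 4.83% of their genes in any library. On the shares neither was called, and BUB1-210 turned to -0.00888 against GFP. Its call against GFP was lost without GFP replicate 1 and without either RBMXL3 replicate, and that of STAG2-209 against WT without either WT replicate. The filter was also raised to a mean of at least 5 TPM. NIPBL-202, RAD21-201 and MAD2L1-202 were then called against GFP (diffSplice adjusted p 0.0302, 0.0317 and 0.0259). STAG2-203 was called against WT (0.0341), and PDS5B-201 lost both calls (0.164 against GFP and 0.564 against WT).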

How the data were processed

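Polyadenylated RNA of 6 libraries was sequenced with a stranded kit, per the labels' protocols, and the submitters' processing notes name Trim Galore 0.6.10, STAR 2.7.11a, DESeq2, Salmon 1.10.2 and the builds GRCh38 and hg38. The read counter, its annotation and its strand setting are not given in the sources used here.

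The gene table is named for CPM, but the deposited values are a normalised signal: per library, the authors' counts over a single size factor. Multiplied back, 100% of its 145320 nonzero values were whole reads within a tolerance of 0.01. The planned test assumed CPM, so for testing all values were divided by one common factor, 23.9, to bring the mean column total to that of CPM. The filter asked for 1 or more in 2 or more libraries. Their log2(value + 1) was fitted with limma 3.58.1 (R 4.3.3) over all 6 libraries, one coefficient per group, with a mean-variance trend. All tests are two-sided, with Benjamini-Hochberg adjustment over all genes tested, and called at 0.05. The log2(value + 1) scale makes the change of low genes look smaller. The count test on recovered reads (edgeR 4.0.16) called 1425 genes higher and 1423 lower against GFP, and DESeq2 1.42.0 was a further alternative. Without molecular identifiers, reads are not independent molecules.

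The transcript table holds TPM as deposited by the authors. Of its 251955 transcripts 80.0% had a GENCODE 29 gene, and these carried 94.7% to 95.1% of the TPM of a library. Usage was tested with diffSplice on log2(TPM + 1) of transcripts that reached 1 TPM in 2 or more libraries and had another such transcript in their gene. The alternative test used arcsine square root shares. Depth behind a TPM is unknown. The scripts were tested on simulated data.

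Coordinates are those of GENCODE 29 (GRCh38). Promoter windows are from RefSeq (GRCh38.p14), and exon sequences from GENCODE 29 transcripts. Genes called against both controls in one direction, and at least 1 gene of every role except the chromosomal passenger complex, were given in each library. Of the other pathway genes, the 3 largest rises and 3 largest falls called against both controls were named. The named transcripts were called against both controls, or moved by at least 10 points of share against both. The members, the lists and this rule were chosen with earlier results of these data known. The columns of both tables were matched to samples by name, and 0 columns belonged to no sample.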

Additional observations from a re-analysis of the deposited data

How the results depend on the processing

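With edgeR or DESeq2 on recovered reads the same 4 genes were called against GFP, and the same 2 against both controls. Without a filter the counts of genes called were 1 against GFP, 7 against WT, 0 in GFP against WT (where limma gave 12 lower and 2 higher at an unadjusted p under 0.05, and edgeR and DESeq2, with the filter, called 4 and 6) and 1 against both. In summed TPM they were 2, 3, 0 (limma, 14 at an unadjusted p under 0.05) and 1. Quantile normalization left 1 against both. The test of transcript shares called 3 genes against GFP, 4 against WT and 0 in GFP against WT by limma. Leaving out one library at a time, the ranges were 1 to 12 against GFP, 2 to 23 against WT, 0 to 15 in GFP against WT and 0 to 6 against both, and for transcript usage 4 to 9, 4 to 8 and 1 to 2. The cause of these moves was not tested.

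Replicate numbers did not pair the samples: the deviations of same-numbered libraries correlated at -0.16 (WT and GFP), 0.03 (WT and RBMXL3) and -0.09 (GFP and RBMXL3). With the replicate number as a block the counts were 2 against GFP, 11 against WT, 1 in GFP against WT and 1 against both, and 7, 7 and 1 for transcript usage.

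Changes that turned sign were CDK1 against WT (summed TPM -0.18), CCNB1 against GFP (summed TPM 0.053), AURKA against GFP (summed TPM 0.10), SMC1A against GFP (quantile 0.078, summed TPM 0.30) and against WT (0.00466 and 0.070), RAD21 against WT (quantile 0.051), PTTG1 against GFP (edgeR -0.00288) and BUB1-210 against GFP (shares -0.00888). Leaving out one library, CDK1 ranged from -0.041 to 0.47 against GFP and -0.032 to 0.094 against WT, SMC1A from -0.15 to 0.074 and RAD21 from -0.019 to 0.17 against GFP, and PTTG1 from -0.20 to 0.22 against GFP and -0.14 to 0.27 against WT. In summed TPM the median change over all genes tested was itself 0.13 against GFP and 0.03 against WT. With 2 libraries a group, small changes cannot be told from replicate spread, and a TPM listed at 0 has no counting limit here.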

Other observations

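Among the other genes of the pathway, 3 had few reads in the gene table and ample TPM in the transcript table. PRC1, which bundles the central spindle, had 7 to 21 reads in a library but 72.5 to 124 TPM. NUSAP1, a spindle-associated protein, had 2 to 9 reads and 118 to 166 TPM. MAD1L1, a checkpoint protein, had 4 to 11 reads and 68.9 to 88.1 TPM. All 3 fell under the filter of the gene test. They were chosen after their values were seen. The meiotic cohesin genes SMC1B and RAD21L1 had at most 3 and 7 reads in any library, and STAG3 had 8 to 21.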
